A study of Mus musculus with 5 samples.

Results

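The mechanical character of skeletal muscle depends largely on which isoforms of myosin and troponin its fibres make. This account follows 10 genes for such isoforms in knee joints of mice. Of these, 6 mark fast fibres (Myh1, Myh2, Myh4, Tnnt3, Tnni2 and Tnnc2) and 4 mark slow fibres (Myh7, Tnnt1, Tnni1 and Tnnc1). They were chosen by gene symbol, and all 10 were found among the 12393 genes that the arrays measured with at least 1 probe set of a single symbol. Together they had 14 such probe sets, 10 fast and 4 slow. Another 2 probe sets are annotated to both Myh7 and Myh6 and were kept apart.

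The study hybridised RNA from whole tibio-femoral joints of male mice, 3 months old and of a C57/Bl6:129 hybrid background, to 5 Affymetrix arrays. The double-null animals lacked both epiphycan and biglycan, small proteoglycans of the cartilage and connective tissue matrix, and gave 3 arrays. Wildtype animals gave 2 arrays. Each array carried 1 pool of 3 mice (6 joints), so every value is an average over 3 animals and a replicate is a separate pool. The values came as 2 tables of the same 22690 probe sets, called array types here: type A held double-null pool 3 and wildtype pool 2, and type B held double-null pools 1 and 2 and wildtype pool 1. The sources used here do not say whether the tables stand for different arrays or only for different records. Values below are the deposited signals on a linear scale. Group differences are log2 fold changes on the log2(signal + 32) scale after quantile normalisation, with array type as a term in the fit. On this scale changes of dim genes come out too small. The small number of arrays limits the precision of every value.

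Muscle contracts when myosin heads pull on actin filaments. Myosin heavy chain genes encode the motor itself: Myh4 encodes the IIb form of the fastest fibres, Myh1 the IIx form, Myh2 the IIa form of fast oxidative fibres, and Myh7 the slow form, which the heart also uses. Troponin is the calcium switch on the thin filament. Its C subunit binds calcium, its I subunit blocks contraction at rest, and its T subunit ties the complex to tropomyosin. Tnnc2, Tnni2 and Tnnt3 encode the fast forms, and Tnnc1, Tnni1 and Tnnt1 the slow forms. Limb muscles of the mouse consist mostly of fast fibres.

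The 3 fast myosin genes lie next to each other on mouse chromosome 11, with no protein-coding gene between Myh2 and Myh1 or between Myh1 and Myh4. Their start regions are shown because the genes are neighbours. RefSeq (GRCm38.p6) gave a window of 250 bases before to 50 bases after the gene start for 8 of the 10 members, and not for Tnnt3 and Tnni2. The windows are chr11:67199852-67200151 for Myh1, chr11:67170777-67171076 for Myh2 and chr11:67237562-67237861 for Myh4, all on the + strand and printed 5′ to 3′. Capitals mark a run of 20 bases that all 3 windows share, and the letters TATAAAA.
Myh1: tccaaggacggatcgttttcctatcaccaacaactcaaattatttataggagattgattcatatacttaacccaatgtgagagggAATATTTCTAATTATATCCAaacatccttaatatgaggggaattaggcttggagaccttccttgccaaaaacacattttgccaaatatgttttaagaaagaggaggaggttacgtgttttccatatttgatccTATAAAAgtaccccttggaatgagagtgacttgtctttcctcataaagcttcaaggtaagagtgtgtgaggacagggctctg
Myh2: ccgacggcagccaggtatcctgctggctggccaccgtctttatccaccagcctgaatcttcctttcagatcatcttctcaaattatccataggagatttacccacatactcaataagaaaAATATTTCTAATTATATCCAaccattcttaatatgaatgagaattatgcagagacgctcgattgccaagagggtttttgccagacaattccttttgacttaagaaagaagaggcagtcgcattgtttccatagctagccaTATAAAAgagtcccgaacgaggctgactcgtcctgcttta
Myh4: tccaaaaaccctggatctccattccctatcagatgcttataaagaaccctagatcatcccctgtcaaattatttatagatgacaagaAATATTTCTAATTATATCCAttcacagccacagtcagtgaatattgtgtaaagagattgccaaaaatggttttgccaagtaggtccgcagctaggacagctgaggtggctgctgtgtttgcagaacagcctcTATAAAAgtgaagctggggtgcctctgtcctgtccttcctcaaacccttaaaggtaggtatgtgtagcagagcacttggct
Counted from the gene start, the shared run begins at base -165 in Myh1, -130 in Myh2 and -163 in Myh4. On either strand it occurred in 3 of the 32851 windows of the table, namely these. TATAAAA begins at base -32 in Myh1 and -31 in Myh4, while in Myh2 it begins at base 11, after the annotated start. On either strand 5.48% of all windows hold it, among them those of 3 members, Myh1, Myh2 and Myh4. A match of letters describes the sequence and does not show that a factor binds there.

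As a check of the labels, the 3 Bgn probe sets averaged 20.9, 46.1 and 211 in the double-null pools, against 3209, 3019.5 and 2708 in the wildtype pools. All 3 passed the threshold (limma adjusted p between 0.00062 and 0.0047). The single Epyc probe set read 1.29 to 10.8 in the double-null pools and 78.8 and 91.2 in the wildtype pools, and it missed the threshold (adjusted p = 0.16). The 27 Bacillus control probe sets match no mouse message and gave the background. Their highest signal on an array ran from 27.5 in double-null pool 3 to 63.5 in double-null pool 2. The labelled tissue carried its markers: 8 of 9 measured cartilage genes, 5 of 5 bone genes and 22 of 22 general skeletal muscle genes lay above the highest Bacillus control on all 5 arrays.

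Both troponin and myosin genes of fast fibres gave strong signals in every pool, and double-null joints did not differ detectably from wildtype joints in any of them. Of the 14 member probe sets, 0 passed an adjusted p of 0.05 (limma, Benjamini-Hochberg over 22626 probe sets). Among all probe sets 6 passed, or 0.0265%, with 0.00442% higher and 0.0221% lower in double-null joints. At an unadjusted p under 0.05 there was 1 member probe set, that of Myh2, and 5.35% of all probe sets. The median log2 fold change over the 6 fast genes, each by its brightest probe set, was -0.087, and over the 4 slow genes it was -0.33, beside a median of -0.0039 over all probe sets. The slow median was 0.13 without wildtype pool 2 or without double-null pool 3, and -0.88 without wildtype pool 1. It was -0.50 with a constant of 1 added to the signal in place of 32.

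Myh4, the IIb motor gene, read 6184, 3928 and 9143 in double-null pools 1 to 3, against 4215 and 7711 in wildtype pools 1 and 2. The highest and the lowest values were both double-null, and the wildtype values lay between them. The means were 6418 ± 2615 in double-null pools (SD, n = 3) and 5963 ± 2472 in wildtype pools (SD, n = 2). Its log2 fold change was 0.20, with a 95% confidence interval from -0.39 to 0.79 (limma adjusted p = 0.99). The interval takes in higher as well as lower levels, and the estimate came to -0.012 without double-null pool 1, against 0.37 when pool 2 of that genotype was left out.

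Myh1, the IIx motor gene, had 3 probe sets. The brightest read 5499.8, 3732 and 7668 in double-null pools 1 to 3, against 4667 and 7843 in wildtype pools 1 and 2. The groups overlapped, and the log2 fold change was -0.068 (95% interval from -0.60 to 0.46). A second bright probe set was at -0.0042 and put the arrays in the same order, with double-null pool 3 and wildtype pool 2 almost level. The remaining probe set stayed between 4.14 and 57.7 and exceeded the highest Bacillus control on 2 of 5 arrays. It measured no clear level, and its log2 fold change of 0.077 is not an exact size. The adult fast myosins are close in sequence, so probe sets of 1 gene may also take up message of another, above all the brightest of Myh1, whose name carries the suffix for probes that can match other transcripts.

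Myh2, the IIa motor gene, was the member with the smallest p for genotype. Its fitted difference was also the largest of the members with a constant of 32 added to the signal, but not with a constant of 1, where Tnni1 (-0.77) and Tnnc1 (-0.67) exceeded Myh2 (-0.62). It read 428, 274 and 895 in double-null pools 1 to 3, against 466 and 1603 in wildtype pools 1 and 2. Wildtype pool 2 stood above all others, and double-null pool 3 lay above wildtype pool 1, so the groups overlapped. The means were 532 ± 324 in double-null pools (SD, n = 3) and 1035 ± 804 in wildtype pools (SD, n = 2). The log2 fold change was -0.59 ± 0.22 (SE), with a 95% confidence interval from -1.11 to -0.072 and an unadjusted p = 0.031. Adjusted over all probe sets it did not pass (limma adjusted p = 0.89). On array type A alone the difference was -0.84, and on array type B alone -0.41.

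Among the fast troponins, Tnnc2, the calcium-binding subunit, read 6578, 5788 and 11075 in double-null pools 1 to 3, against 7653 and 9143 in wildtype pools 1 and 2. The double-null values spanned the wildtype values on both sides. The log2 fold change was -0.096 (95% interval from -0.51 to 0.32), the narrowest interval among the fast genes by their brightest probe set. Tnnt3, which anchors troponin to tropomyosin, read 5442, 3049.96 and 9519.7 in double-null pools, against 5294 and 7551 in wildtype pools. Its log2 fold change was -0.077 (95% interval from -0.73 to 0.58), and the groups overlapped in the same way.

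Tnni2, the fast inhibitory subunit, had 3 probe sets. The brightest read 3853, 2751 and 7564 in double-null pools 1 to 3, against 4066 and 6865 in wildtype pools 1 and 2, with a log2 fold change of -0.16 (95% interval from -0.59 to 0.27). Another bright one was at -0.32 (interval from -0.75 to 0.10), and a dim one, above the highest Bacillus control on 2 of 5 arrays, was at -0.42. All 3 point the same way and their groups overlapped. None passed the threshold, and the smallest adjusted p of any member was that of Myh2.

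**Figure D1:**
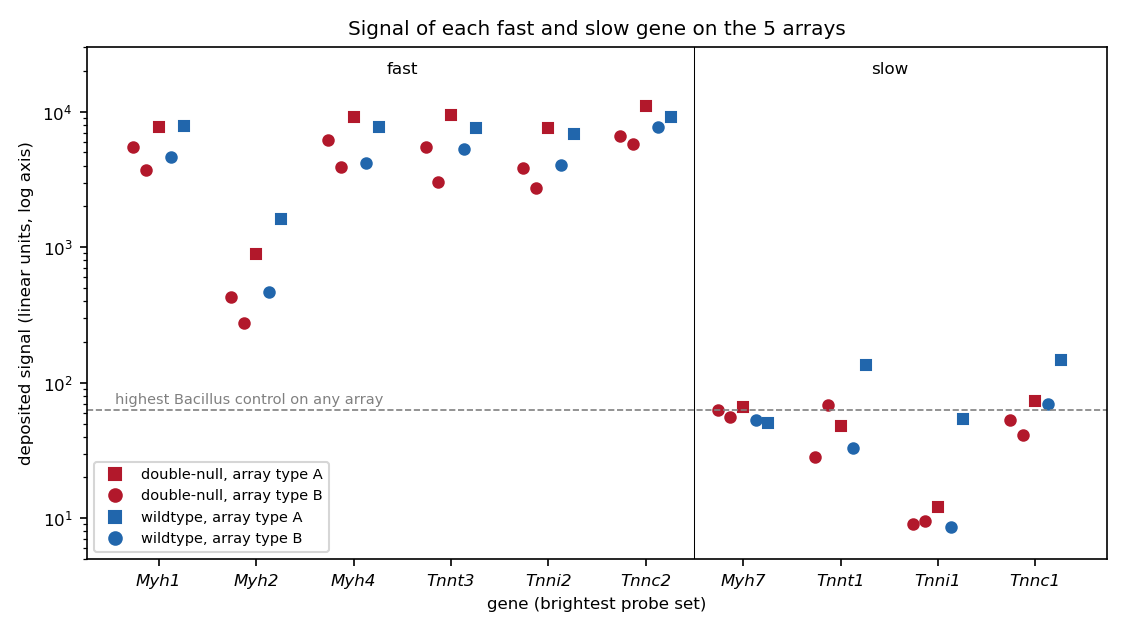
Deposited signal (log axis) of the brightest probe set of each of the 10 genes on the 5 arrays, with double-null arrays in red and wildtype arrays in blue, squares for array type A and circles for type B. The fast genes sit far above the dashed line, the highest Bacillus control signal of 63.5, while the slow genes scatter around and below it, with wildtype pool 2 the highest array in Tnnt1 (135) and Tnnc1 (146).

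The slow genes gave signals near the background, so their differences are less certain than those of the fast genes. None of their 4 probe sets had a mean above the 40th percentile of all probe sets, a signal near 77.7, while the brightest probe set of each fast gene did. Tnnt1, the slow subunit that binds tropomyosin, read 28.4, 68.2 and 48.2 in double-null pools 1 to 3, against 32.8 and 135 in wildtype pools 1 and 2. It exceeded the highest Bacillus control on 3 of 5 arrays. Wildtype pool 2 was the highest, and wildtype pool 1 lay below 2 of the double-null pools.

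Tnni1, the slow inhibitory subunit, read 9.03, 9.56 and 12.2 in double-null pools 1 to 3, against 8.59 and 53.9 in wildtype pools 1 and 2. Wildtype pool 2 was the sole array above its highest Bacillus control, so the gene had a measurable signal on 1 of the 2 wildtype arrays and on none of the double-null arrays, and its fitted differences have no reliable size. Tnnc1, the calcium sensor of slow fibres and heart, read 53.1, 41.5 and 73.0 in double-null pools, against 69.4 and 146 in wildtype pools. The groups overlapped narrowly, since double-null pool 3 exceeded wildtype pool 1. Its log2 fold change was -0.48 (95% interval from -1.07 to 0.11, limma adjusted p = 0.92).

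Myh7, the slow motor gene, did not share this pattern. It read 62.8, 55.6 and 66.1 in double-null pools 1 to 3, against 53.5 and 50.2 in wildtype pools 1 and 2. Every double-null array thus lay above both wildtype arrays, which held for 9.24% of all probe sets. The size was small, at a log2 fold change of 0.21 (95% interval from -0.30 to 0.72), and the signal of double-null pool 2 lay below the highest Bacillus control of that array. The 2 probe sets shared by Myh7 and Myh6 read 5.81 to 9.33 and 0.867 to 1.66 in the double-null pools. In wildtype pools 1 and 2 the brighter one read 10.1 and 38.7 and the other 2.82 and 2.04. Their log2 fold changes, -0.40 for the brighter and -0.040 for the other, were opposite in sign to that of the single-symbol Myh7 probe set. In the brighter one every double-null array lay below both wildtype arrays. It exceeded the highest Bacillus control on 1 array and the other on 0, so these fitted values have no reliable size.

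**Figure D2:**
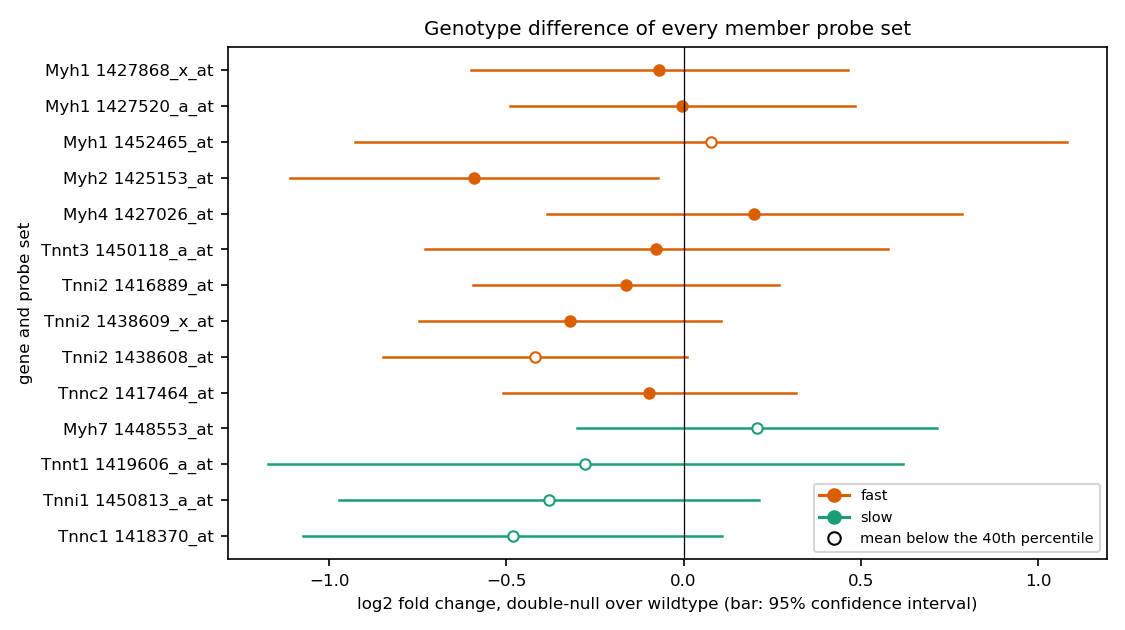
Log2 fold change, double-null over wildtype, of all 14 probe sets with 95% confidence intervals from the limma fit; orange is fast, green is slow, and open circles mark means below the 40th percentile. The interval of Myh2, from -1.11 to -0.072, is the one that leaves out 0 before adjustment over all probe sets.

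A larger contrast ran across the arrays in both genotypes. All 8 fast probe sets above the 40th percentile read higher on both arrays of type A than on all 3 of type B, which 11.8% of all probe sets did. Double-null pool 2 was the lowest array for each of these 8. At like genotype, the log2 difference of type A over type B ran from 0.76 to 1.66, with a median of 1.02 over the 6 fast genes, beside -0.016 over all probe sets. Myh2 was 2.84-fold higher on type A (log2 1.51 ± 0.22 SE), Tnni2 2.18-fold, Tnnt3 2.06-fold, Myh4 2.0005-fold, Myh1 1.85-fold and Tnnc2 1.7013-fold. For each of the 8 probe sets the unadjusted p lay under 0.05, as it did, upward, for 4.23% of all probe sets. Over all probe sets none passed after adjustment (limma, 0 of 22626 or 0%, lowest adjusted p of a member 0.298), while 7.12% of all had an unadjusted p under 0.05 in either direction. The call depended on the filter. Fitted over the 13575 probe sets above the 40th percentile, 3 of the 8 fast probe sets passed, all higher on type A, beside 0.177% of those fitted (lowest limma adjusted p = 0.0128). Over the 9050 above the 60th percentile, 3 of 8 passed again, beside 0.431% (lowest adjusted p = 0.0113). The 3 were the same under both filters, namely the single Myh2 probe set and both bright Tnni2 probe sets. These 2 Tnni2 probe sets stand for 1 gene. The less bright of them had the largest difference (1.66). Its name carries the suffix for probes that can match other transcripts, like that of the brightest Myh1 probe set. The array type is confounded with whatever else set double-null pool 3 and wildtype pool 2 apart, and the 2 cannot be told apart.

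The slow members, all near background, gave smaller values in this contrast, and the gap to the fast genes was not tested. Some other genes of slow fibres rose as much as the fast genes, as given below. Tnnt1, Tnni1 and Tnnc1 were at log2 differences of 0.56, 0.49 and 0.53 for type A over type B, with unadjusted p of 0.18, 0.093 and 0.070, and Myh7 was at -0.011. Both type A arrays lay above all type B arrays in Tnni1 and Tnnc1, and not in Tnnt1 or Myh7, beside 11.8% of all probe sets. Double-null pool 3, which was the highest or second-highest array in all 6 fast genes, was the third in Tnnt1. Relative to the mean of each gene over the 5 arrays, the slow genes averaged -0.13, -0.15 and -0.069 on the log2 scale in double-null pools 1 to 3, against -0.23 and 0.58 in wildtype pools 1 and 2. The fast genes averaged -0.16, -0.78 and 0.57 in double-null pools, against -0.35 and 0.72 in wildtype pools. The slow mean thus stood above 0 on 1 array and the fast mean on 2. The signals of slow genes lie close to the added constant of 32, which compresses their differences.

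**Figure D3:**
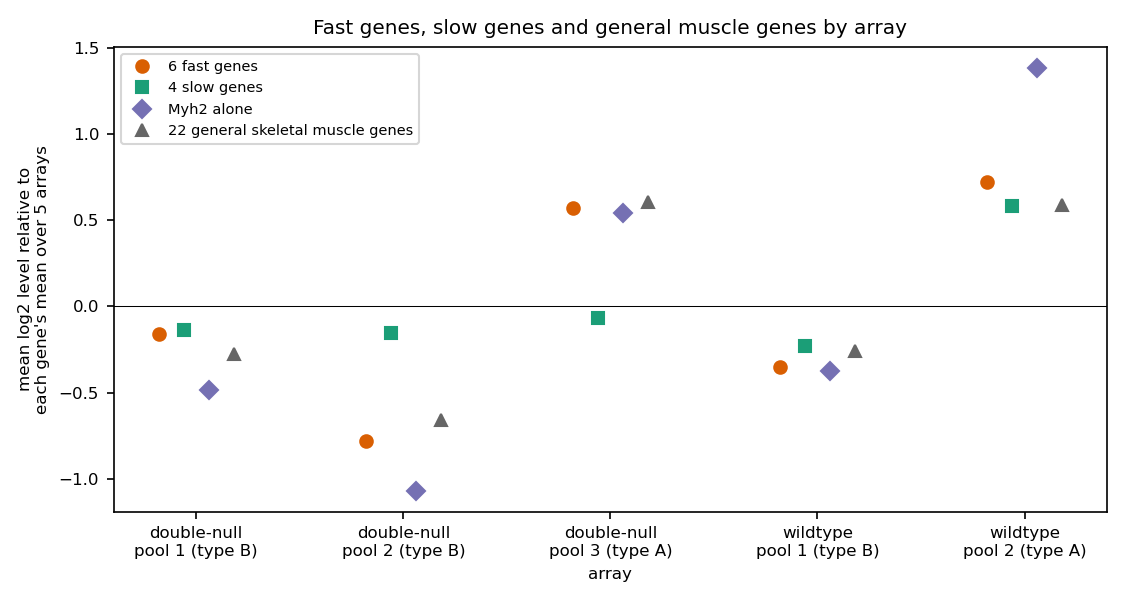
Mean log2 level on each array, relative to the mean of each gene over the 5 arrays, for 6 fast genes (orange circles), 4 slow genes (green squares), Myh2 alone (purple diamonds) and 22 general skeletal muscle genes (grey triangles). Fast genes and general muscle genes are high in double-null pool 3 and wildtype pool 2, and slow genes in wildtype pool 2 (0.58) but not in double-null pool 3 (-0.069).

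The levels of general skeletal muscle genes moved with those of the fast genes across the pools. The 22 measured general skeletal muscle genes averaged -0.28, -0.66 and 0.61 in double-null pools 1 to 3, against -0.26 and 0.59 in wildtype pools 1 and 2. Their summed signal ran from 23544 to 50438 in double-null pools and was 38134 and 46208 in wildtype pools. Of the 22, 21 read higher on both type A arrays than on all type B arrays, beside 11.8% of all probe sets. The fast genes minus the general muscle genes gave 0.12, -0.12 and -0.037 in double-null pools, against -0.093 and 0.14 in wildtype pools, a narrower range than that of the fast genes themselves. The part that muscle content has in the array contrast was not tested. In whole joints, fewer muscle fibres and less message per fibre cannot be told apart.

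Other genes of fast and slow fibres did not pass for genotype either. Of 12 measured other fast genes 0 passed in either direction, with 3 positive and 9 negative log2 fold changes and a median of -0.21. The range ran from Myl1, a fast myosin light chain gene, at 0.14, and Actn3, the alpha-actinin of fast fibres, at 0.11, down to Gpd1 at -0.34 and Pygm, the muscle glycogen phosphorylase, at -0.37. The sign for Pygm turned with the array type, at 0.42 within type A and -0.95 within type B. All 12 read higher on both type A arrays than on all type B arrays. Of 12 measured other slow genes 0 passed, with a median of -0.099, and 5 of the 12 were fully higher on type A. Among all probe sets 11.8% were fully higher on type A. Their log2 differences of type A over type B had a median of 0.41, and 8 of the 12 were positive. These ran from Myl2 (1.25) and Mb (1.09) down to Ldhb (-0.33) and Atp2a2 (-0.36).

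At the low end of that slow list, Ankrd2, a stretch-responsive protein abundant in slow fibres, read 21.9, 20.04 and 53.7 in double-null pools 1 to 3, against 66.0 and 108 in wildtype pools 1 and 2. Every double-null array lay below both wildtype arrays, as for 9.93% of all probe sets. Double-null pools 1 and 2 lay below the highest Bacillus control of their arrays (31.4 and 63.5), so the fitted log2 fold change of -0.78 has no reliable size (limma unadjusted p = 0.0067, adjusted p = 0.71). Csrp3, also on that list, read 133, 158 and 173 in double-null pools, against 209 and 326 in wildtype pools. Its double-null arrays too lay fully below, with signals above the highest Bacillus control on all 5 arrays. Its log2 fold change was -0.57 (limma unadjusted p = 0.023, adjusted p = 0.86), at -0.82 within type A and -0.38 within type B. On the list 5 log2 fold changes were positive and 7 negative. Ldhb, the heart-type lactate dehydrogenase subunit, was at -0.66, but at 0.038 within type A and -1.19 within type B. The double-null pools read 292 to 394 for it, against 805 in wildtype pool 1 and 386 in wildtype pool 2. At the high end stood Atp2a2, the slow and cardiac calcium pump, at 0.18 and Cox6a1 at 0.13. Cox6a1 was at -0.14 for type A over type B. A place on the slow list does not show that a gene, such as Atp2a2 or Cox6a1, is particular to slow fibres. Nor does it show that a signal from whole joints came from slow fibres. Among general muscle genes the values ran from Myom2 (0.19) and Tpm2 (0.17) to Tcap (-0.39) and Ckm (-0.45), and 0 of 22 passed. Ckm, the muscle creatine kinase gene, was at 0.18 within type A and -0.92 within type B, and Tpm2 at -0.024 and 0.31. Among developmental and cardiac isoforms, 4 of 8 measured genes, by their brightest probe set, lay below the highest Bacillus control on every array, Myh3 and Tnnt2 among them. Myh8 exceeded it on 3 of 5 arrays and Actc1, the cardiac actin gene, on all 5. Actc1 was at 0.40 and 0 of the 8 passed. The fitted values of Myh3 (0.37), Tnnt2 (-0.25) and Myh8 (-0.51) have no reliable size.

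Fast and slow isoforms of 1 protein were then set against each other within each array, as the log2 difference between the 2 genes relative to its own mean over the 5 arrays. This compares changes and not levels of different probe sets. Over all members, the mean fast minus the mean slow value was -0.025, -0.63 and 0.64 in double-null pools 1 to 3, against -0.13 and 0.14 in wildtype pools 1 and 2. The double-null pools spanned the wildtype pools on both sides. The genotype difference of this balance was 0.10 on the log2 scale, at 0.50 within type A and -0.20 within type B, and it carries no test. It was 0.23 with an added constant of 1, 0.00047 with the larger constant tried and 0.00014 without double-null pool 1, so no direction is read from it.

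For troponin T, Tnnt3 minus Tnnt1 was 0.36, -1.11 and 0.89 in double-null pools, against 0.21 and -0.35 in wildtype pools. For troponin I, Tnni2 minus Tnni1 was -0.15, -0.55 and 0.83 in double-null pools, against -0.028 and -0.10 in wildtype pools. Both balances were highest in double-null pool 3 and lowest in double-null pool 2. For troponin C, Tnnc2 minus Tnnc1 was -0.026, -0.043 and 0.49 in double-null pools, against -0.13 and -0.28 in wildtype pools, so the groups did not overlap. The genotype differences, with array type as a term, were 0.20, 0.22 and 0.39 for troponins T, I and C. That of troponin I rests on Tnni1, which was above background on 1 of 5 arrays, so it has no reliable size or direction. Tnnt1 was above background on 3 arrays and Tnnc1 on 4. Within type B they came to -0.58, -0.32 and 0.10, and within type A to 1.24, 0.93 and 0.77, so the fitted sign was the same on both types for troponin C and not for T or I.

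Within the fast myosins, the balance of IIb over IIa was higher in every double-null pool than in both wildtype pools. Myh4 minus Myh2 was 0.59, 0.40 and 0.062 in double-null pools 1 to 3, against -0.22 and -0.83 in wildtype pools 1 and 2. The lowest double-null value, of pool 3, and the lowest wildtype value, of pool 2, both came from type A. The genotype difference was 0.79 on the log2 scale, at 0.89 within type A and 0.72 within type B, and the residual SD between arrays with type accounted for was 0.12. Of the 7 pairs of isoforms examined, 2 had the groups apart, Myh4 over Myh2 and Tnnc2 over Tnnc1. Among single probe sets, 9.24% had every double-null array above and 9.93% below both wildtype arrays, so a count of 2 in 7 is no result by itself. The pair Myh4 and Myh2 was singled out after the values were seen, and the difference carries no test. Neither gene passed on its own. Myh1 minus Myh2 overlapped between the groups, at 0.47, 0.40 and -0.12 in double-null pools, against -0.024 and -0.73 in wildtype pools. Myh4 minus Myh7 overlapped as well, and its genotype difference was -0.0082.

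**Figure D4:**
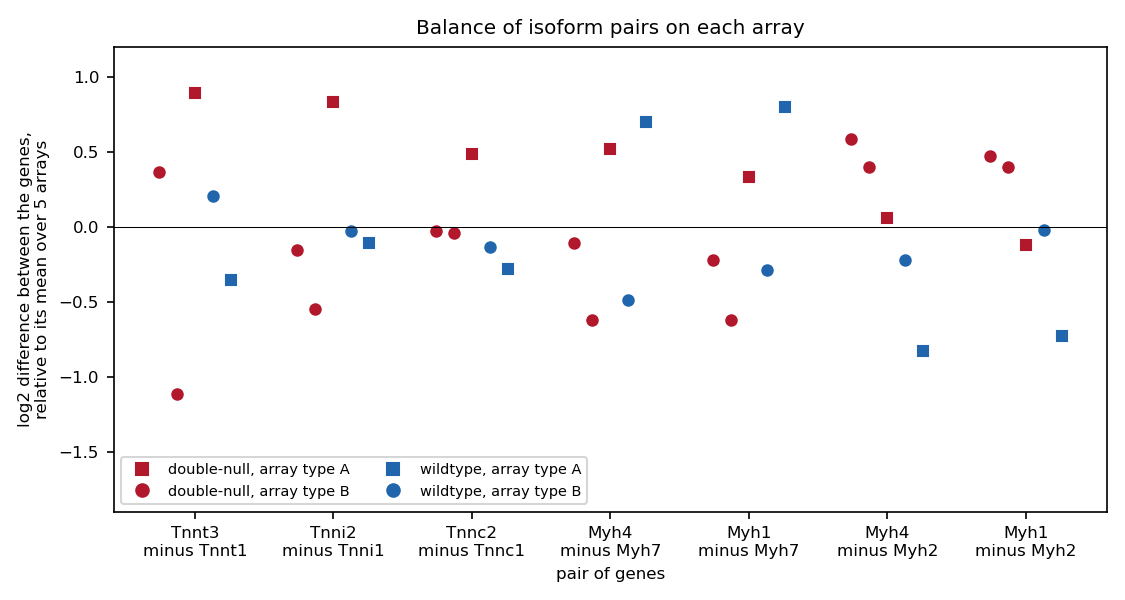
Log2 difference between the genes of each of 7 isoform pairs on each array, relative to its mean over the 5 arrays; red is double-null, blue is wildtype, squares are array type A and circles are type B. In the pair Myh4 minus Myh2 the double-null arrays lie between 0.062 and 0.59 and the wildtype arrays at -0.22 and -0.83, while most other pairs overlap.

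Genotype differences of single members were not alike on the 2 array types. On type A, where double-null pool 3 is set against wildtype pool 2, Tnnt1 was at -1.09, Tnni1 at -0.97, Myh2 at -0.84 and Tnnc1 at -0.79. On type B, where the mean of double-null pools 1 and 2 is set against wildtype pool 1, they were at 0.34, 0.065, -0.41 and -0.25. The other fast genes stayed between -0.23 and 0.15 on type A and between -0.26 and 0.31 on type B. The interaction of genotype and array type was at an unadjusted p of 0.048 for Tnnt1, 0.016 for Tnni1 and 0.013 for the dim probe set of Myh1, where 6.2% of all probe sets were under 0.05. None of the 14 passed after adjustment (limma, lowest adjusted p = 0.79, 0% of all probe sets), with 1 residual degree of freedom.

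**Figure D5:**
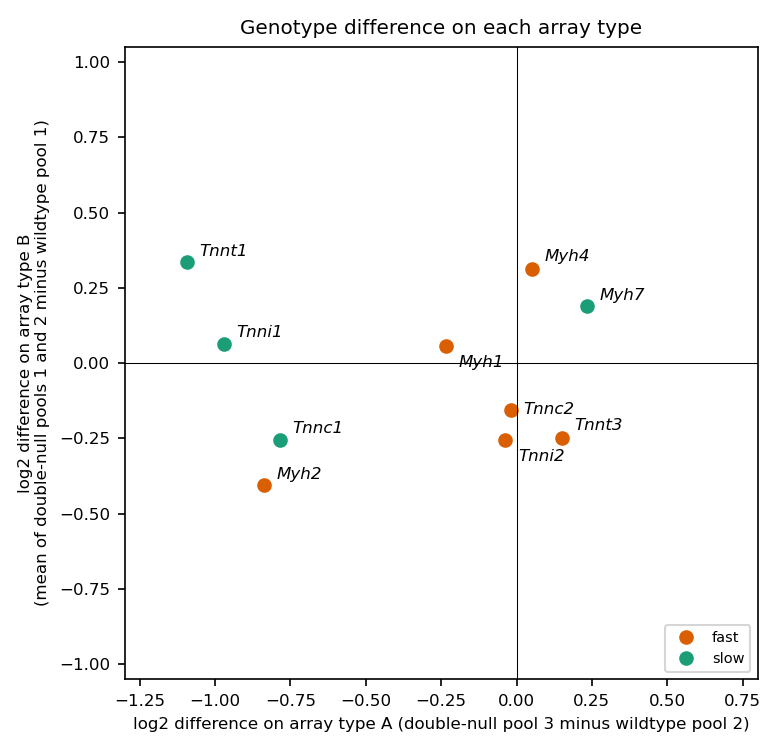
Genotype difference (log2, double-null minus wildtype) of each gene by its brightest probe set for array type A (horizontal) and for type B (vertical). Myh2, Tnnc1, Tnni2 and Tnnc2 lie below 0 on both, and Myh7 (0.23 and 0.19) and Myh4 (0.051 and 0.31) above 0 on both. Tnnt1 and Tnni1 lie far to the left (-1.09 and -0.97) and above 0 on type B. The fast genes other than Myh2 lie near the centre.

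The members also varied together across the 5 arrays. The 15 pairs of fast genes had Pearson correlations from 0.84 to 0.998 (median 0.95), and the 3 pairs among Tnnt1, Tnni1 and Tnnc1 from 0.67 to 0.92. Fast with slow genes other than Myh7 ran from 0.24 to 0.94, and Myh7 with the others from -0.58 to 0.26. Myh2 correlated with these 3 slow genes at 0.62 to 0.94. With the other fast genes, its chromosome neighbours Myh1 and Myh4 among them, Myh2 correlated at 0.84 to 0.96. Pairs of fast genes other than Myh2 ran from 0.91 to 0.998. These are descriptions over 5 arrays that share their RNA pools and scaling. Among 156 bright and variable genes outside the members, the profiles most like the fast genes were those of Actn2 (alpha-actinin of the Z-disc, r = 0.999), Ckmt2 (mitochondrial creatine kinase, 0.997), Cox7a1 (a muscle cytochrome oxidase subunit, 0.997), Smpx (0.995) and Ndrg2 (0.994). Those most like the slow genes were Map3k3 (0.93), Tcap (the titin cap protein, 0.85), Rassf5 (0.85), Hspb7 (0.85) and AI504432 (0.84). The likeness over 5 arrays says nothing of shared control.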

How the data were processed

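The labels' protocols state that RNA of pooled joints was extracted with Trizol and RNeasy columns and labelled with biotin by in-vitro transcription. The authors deposited linear signal intensities for each probe set. Per the submitters' processing notes these came from MAS5, whose version the sources used here do not give. All 5 arrays had a 2% trimmed mean between 250.08 and 250.09, which points to a common scaling target. Detection calls were not used here.

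The tables were joined, transformed as log2(signal + 32) and quantile normalised. All 22626 probe sets other than 64 controls were fitted on genotype plus array type by limma's lmFit and trended eBayes (version 3.58.1, R 4.3.3). Tests were two-sided with 2 residual degrees of freedom (4.57 prior), and the threshold was a Benjamini-Hochberg adjusted p of 0.05. The fit was tested on simulated data with independent noise, which holds no variation shared between genes. The share of changed probe sets that it recovered is not given here. Gene symbols came from the platform annotation: 20393 probe sets had 1 symbol, 691 several and 1606 none, and 20364 were brought up to date by Entrez number against RefSeq's GRCm38.p6 table. Means ± SD are of deposited signals.

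All 14 probe sets of the members are named. From each list of other muscle genes the 2 highest and 2 lowest log2 fold changes are named, and profiles most like the members were taken by Pearson r among genes above the 60th percentile with an SD of at least 0.5. For the other slow genes, the 2 highest and 2 lowest array type differences are named as well. Csrp3 was added after the values were seen, since its groups did not overlap. The members and lists were chosen with earlier results of these data known. The fast minus slow balance was planned for genes above the 40th percentile. Since 0 of 4 slow genes had such a probe set, all members entered by their brightest probe set, a choice made after seeing the data. Replicate numbers come from the titles.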

Additional observations from a re-analysis of the deposited data

How the results depend on the processing

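The count of 0 member probe sets past the threshold for genotype was the same in all 16 alternatives: deposited scaling, median centring, a smaller and a larger pseudocount, filters at the 40th and 60th percentiles, no array-type term, array type B alone, a replicate block in place of that term, no intensity trend, 1 probe set per gene, and leaving out each array in turn. Between 0 and 3 of them were under an unadjusted p of 0.05. The filters removed all 4 slow genes, so no slow value exists there. The Myh4 minus Myh2 difference of 0.79 ran from 0.72 to 0.89 without single arrays and from 0.72 to 1.02 otherwise, with 1.02 under the replicate block. The filters, the fit with no intensity trend and 1 probe set per gene leave this value as it is. The pair was singled out after the values were seen, so these ranges are no test of it. The array type difference of the fast genes (1.02) kept its direction, at 0.81 to 1.22 without single arrays. With the filters its size stayed at 1.02, but 3 of 8 fast probe sets passed there (lowest limma adjusted p 0.0128 at the 40th percentile and 0.0113 at the 60th) and 0 in the other alternatives with an array-type term (lowest adjusted p 0.171 to 0.683).

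The median of the slow genes (-0.33) was 0.13 on array type B alone, and ran from -0.88 to 0.13 without single arrays: 0.13 without wildtype pool 2 or double-null pool 3 and -0.88 without wildtype pool 1. The smaller pseudocount gave -0.50 and the larger -0.16, and for the fast minus slow difference 0.23 and 0.00047. That difference (0.10) was -0.010 without the array-type term and ran from -0.20 to 0.50 without single arrays, with 0.50 without wildtype pool 1, and was -0.33 under the replicate block. The median of the fast genes (-0.087) was -0.58 under the replicate block and ran from -0.26 to 0.041 without single arrays. With either type A array removed, the genotype contrast rests on type B, so these are not separate checks.

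Of 152 single-gene values under alternatives, 15 changed sign and 137 kept it. On type B alone, and with either type A array removed, Myh1 was at 0.055, Tnnt1 at 0.34 and Tnni1 at 0.065. Under the replicate block Myh4 was at -0.26 and Myh2 at -1.28, against -0.59 as reported. Without single arrays Myh1 ran from -0.25 to 0.075, Myh4 from -0.012 to 0.37, Tnnt3 from -0.27 to 0.17, Tnnc2 from -0.18 to 0.0077, Tnnt1 from -1.09 to 0.34 and Tnni1 from -0.97 to 0.065. The sign turned without double-null pool 1 (Myh4), double-null pool 2 (Myh1, Tnnt3, Tnnc2) and wildtype pool 1 (Tnnt3, 0.15). The cause was not tested. Same-numbered pools correlated at 0.0074 (number 1) and -0.11 (number 2) in their deviations from the group means, over probe sets. The deviations of the wildtype pools mirror each other and also carry the array type. These values therefore cannot show whether same-numbered pools share more than a number. Signals of the slow genes lay at or near the Bacillus controls, which limits their differences.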
